A study of Bos taurus with 8 samples.

Results

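The miR-23, miR-27 and miR-24 microRNAs (miRNAs) of cattle come from a pair of paralogous gene clusters. Every array entry whose name has the stem miR-23a, miR-23b, miR-24, miR-27a or miR-27b, with any arm suffix, was taken, which gave 8 of the 763 bovine miRNAs on the array. They are bta-miR-23a, bta-miR-23b-3p, bta-miR-23b-5p, bta-miR-24, bta-miR-24-3p, bta-miR-27a-3p, bta-miR-27a-5p and bta-miR-27b, written here without the bovine prefix. Mammary tissue of 4 Limousin heifers and 4 Holstein-Friesian heifers was compared. Limousin is a beef breed and Holstein-Friesian a dairy breed, and the comparison asks how miRNA levels in the gland differ between them. All animals were healthy, non-pregnant and sampled at slaughter; their age is given both as 20 months and as 2 years. Total RNA of udder tissue kept in RNAlater was labelled with Cyanine 3-pCp (100 ng per sample) and read on one-colour Agilent arrays, 1 per heifer, and each breed's 4 samples are described as biological replicates.

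A cluster makes 1 primary transcript from which the hairpins of miR-23, miR-27 and miR-24 are cut. Both miR-24 hairpins give the same mature miR-24-3p, whereas miR-23a and miR-23b, and likewise miR-27a and miR-27b, share a seed (bases 2 to 8, the part that pairs with targets) and differ near the 3′ end. As background, miR-27 represses PPARG, the transcription factor that drives fat cell differentiation, and in goat mammary epithelial cells it lowers genes of milk fat synthesis. MiR-24 represses cell cycle genes such as MYC and E2F2, and miR-23 represses glutaminase, the enzyme that opens glutamine breakdown. The clusters are abundant in endothelial cells, fibroblasts and many epithelia.

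In the RefSeq gene table of the ARS-UCD2.0 assembly, MIR23A, MIR27A and MIR24-2 are next to each other on chromosome 7, within the span of the gene LOC132345691. MIR23B, MIR27B and MIR24-1 lie together within the gene AOPEP on chromosome 8. The array design, built on UMD 3.1, places the miR-23a probe at chr7:12982022-12982035, the miR-24-3p probe at chr7:12981696-12981712 and the miR-27b probe at chr8:83009887-83009903. It lists 2 places each for miR-23b-3p, on chromosome 8, and for miR-27a-3p, on chromosome 7. It lists 1 for miR-24-3p although both clusters encode it, so this entry reads the sum of both.

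What the array could tell apart is set by the probes, which pair with the 3′ part of each miRNA. The probe used for each detected member is shown 5′ to 3′ as DNA, with capitals at the base that differs between paralogs.
miR-23a: tggAaatccctggca
miR-23b-3p: gtggTaatccctggc
miR-27a-3p: cGgaacttagccact
miR-27b: gcAgaacttagccactgt
miR-24-3p: ctgttcctgctgaactga
The miR-23a and miR-23b-3p probes share 14 aligned bases with 1 mismatch, A4T, counted from the 5′ end of the miR-23a probe. The miR-27a-3p and miR-27b probes share 15 with 1 mismatch, G2A, counted from the 5′ end of the miR-27a-3p probe. Separate values of paralogs are therefore uncertain, since a probe may bind some of its partner. No other miRNA on the array has a probe sharing 13 or more bases with at most 1 mismatch with any of these. Probe length differs as well: the miR-23a, miR-23b-3p and miR-27a-3p probes have 15 bases, and the miR-27b and miR-24-3p probes have 18.

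The entry named miR-24 is not the abundant strand. Its longer probe is shown because its letters settle which arm the name stands for.
miR-24: actgatatcagctcagtaggc
This probe lies at chr8:83010385-83010404 in UMD 3.1, in the miR-23b cluster, and pairs with the 5′ arm of the miR-24-1 hairpin, the strand that is usually discarded.

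The arrays differed in brightness, and this bears on every level below. The 75th percentile of the probes detected on all 8 arrays was 943 to 1579 in Limousin and 557 to 939 in Holstein-Friesian, so signals were divided by it before log2 was taken. A miRNA was called well above background on an array when more than 50% of the spots of 1 of its probes were. In all, 269 miRNAs met this on all 4 arrays of at least 1 breed and were tested with limma, and the adjusted p is Benjamini-Hochberg over these 269. Over them, 37 were higher and 76 lower in Limousin, and with no scaling 172 were higher and 2 lower. The 8 arrays share 1 slide and 1 scan, with Limousin samples in one position index and Holstein-Friesian samples in the other by the deposited names, so that position on the slide and breed cannot be told apart. Holstein-Friesian replicate 2 stood apart on the second principal component (score -6.40, against -0.04 to 2.18 for the other 7 arrays), which held 16.2% of the variance.

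Of the 8 members, 5 were well above background on all 8 arrays and were tested: miR-23a, miR-23b-3p, miR-24-3p, miR-27a-3p and miR-27b. MiR-24-3p and miR-27b rose in Limousin, 1.36-fold and 1.28-fold, and the other 3 did not pass. For comparison, 13.8% of all tested miRNAs were called higher in Limousin and 42% were called in either direction. The median log2 difference was 0.20 over the 5 members and -0.07 over all tested miRNAs, with the members' counts resting on a few probes that share sequence. In bulk tissue, more cells of a type and more of the miRNA per cell cannot be told apart.

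MiR-24-3p, the mature strand of both clusters, had scaled log2 signals of 11.73, 11.80, 11.68 and 11.88 in Limousin, against 11.15, 11.43, 11.35 and 11.37 in Holstein-Friesian. Every Limousin array lay above every Holstein-Friesian array, with 0.25 between the nearest values. The mean was 11.77 ± 0.09 in Limousin and 11.33 ± 0.12 in Holstein-Friesian (SD, n = 4 each), a log2 difference of 0.45 (SE 0.11) and 1.36-fold higher (interval of 95% confidence, 1.15 to 1.62; adjusted p of limma = 0.0108). Its call held in all 25 alternative settings, with limma adjusted p from 4.7e-05 to 0.0460. These settings reuse the same arrays, so they are not separate tests. The lowest value came with labelling spike-in scaling, where 63.9% of all tested miRNAs were called higher in Limousin.

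MiR-27b, the PPARG-targeting member of the miR-23b cluster, had scaled log2 signals of 11.68, 11.61, 11.61 and 11.83 in Limousin, against 11.37, 11.29, 11.36 and 11.27 in Holstein-Friesian. The breeds again did not overlap, and the 4 Holstein-Friesian arrays spanned 0.095. The mean was 11.68 ± 0.10 in Limousin and 11.32 ± 0.05 in Holstein-Friesian (SD, n = 4 each), a log2 difference of 0.36 (SE 0.10) and 1.28-fold higher (1.09 to 1.501; limma adjusted p = 0.0206). Among the fits that left out 1 array, this call ended without Holstein-Friesian replicate 4 (limma adjusted p = 0.0651), without Limousin replicate 1 (0.0637) and without Limousin replicate 4 (0.0533). Arrays of the 2 breeds were free of overlap for 16% of all tested miRNAs with the higher values in Limousin.

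MiR-27a-3p, the paralog of miR-27b and the strand with the same seed, had scaled log2 signals of 11.54, 11.42, 11.41 and 11.55 in Limousin, against 11.55, 11.17, 11.41 and 11.47 in Holstein-Friesian. The breeds overlapped, and Holstein-Friesian replicate 2 was the only array below 11.40. The log2 difference was 0.08 (SE 0.12), which is 1.06-fold with a 95% confidence interval of 0.881 to 1.26 (limma adjusted p = 0.631). Without Holstein-Friesian replicate 2 the difference was -0.00075 (limma adjusted p = 0.999), so its sign rested on that array.

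MiR-23a, the first hairpin of its cluster, had scaled log2 signals of 12.09, 11.91, 11.92 and 12.06 in Limousin, against 11.91, 11.58, 11.998 and 11.99 in Holstein-Friesian. Holstein-Friesian replicate 2 was again the lowest array, and the other 3 lay among the Limousin values or just under them. The log2 difference was 0.13 (SE 0.13), 1.09-fold with an interval of 0.900 to 1.32 (limma adjusted p = 0.456), and it was 0.03 without Holstein-Friesian replicate 2.

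MiR-23b-3p, which shares its seed with miR-23a, had scaled log2 signals of 12.34, 12.12, 12.24 and 12.26 in Limousin, against 12.13, 11.87, 12.19 and 11.97 in Holstein-Friesian. The Limousin arrays were mostly above the Holstein-Friesian arrays, with an overlap of 0.07 between the lowest Limousin and the highest Holstein-Friesian array. The log2 difference was 0.20 (SE 0.11), 1.15-fold with an interval of 0.963 to 1.37 (limma adjusted p = 0.192). For none of miR-23a, miR-23b-3p and miR-27a-3p does the interval reach below 0.881-fold, and its upper end lies between 1.26-fold and 1.37-fold.

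**Figure D1:**
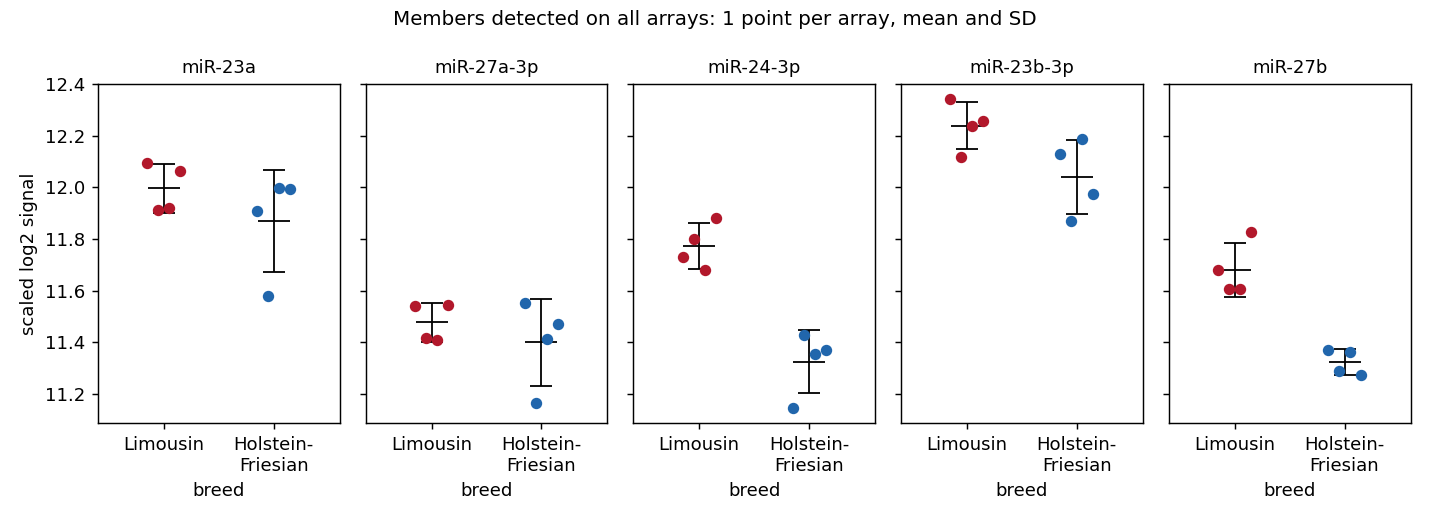
Scaled log2 signal of the 5 members detected on all arrays (vertical axis) in Limousin and Holstein-Friesian heifers, with 1 point per array and bars for the mean and SD of 4 arrays. The breeds are apart for miR-24-3p and miR-27b and overlap for miR-23a, miR-27a-3p and miR-23b-3p.

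The minor arms were at or near the detection limit. The 2 probes of miR-23b-5p and the 4 probes of miR-27a-5p, the passenger strands of their hairpins, were well above background on none of the 8 arrays. Their background-subtracted signals lay between -3.24 and 0.15 intensity units, with 0 spots well above background. The miR-24 entry, the 5′ arm of the miR-24-1 hairpin, was well above background on 2 of the 4 Limousin arrays and on 0 of the 4 Holstein-Friesian arrays. Its longer probe had 14, 30, 1 and 28 of 30 spots well above background in Limousin, against 0, 0, 1 and 0 in Holstein-Friesian. The unscaled signal of that probe was 17.9, 27.3, 12.1 and 22.6 in Limousin, against 4.68, 5.69, 10.8 and 5.81 in Holstein-Friesian, so all 4 Limousin arrays were higher. After scaling the log2 signal was 3.92 ± 0.22 in Limousin and 3.19 ± 0.27 in Holstein-Friesian (SD, n = 4 each). It was not tested, and no fold is given, since the lowest detected signals in Holstein-Friesian lay above its Limousin mean. Detection went with brightness: the arrays that detected miR-24 had 75th percentiles of 1579 and 1245, which were the 2 highest, and the part of brightness in this count was not tested.

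The 2 members that passed are the 2 with 18-base probes, and the 3 that did not pass have 15-base probes. Over all tested miRNAs the breed difference moved with probe length. GC content moved with length too, with a median of 60% at 15 bases and 44.4% at 18, and the part of each was not tested. Among the 26 tested miRNAs with 15-base probes the median log2 difference was -0.43, with 0 called higher and 14 lower in Limousin. Among the 38 with 18-base probes it was 0.13, with 9 higher and 4 lower. Set beside probes of their own length, the members stood near the top in both classes. MiR-23b-3p, miR-23a and miR-27a-3p were the third, the fifth and the sixth highest of the 26. MiR-24-3p and miR-27b were the fifth and the eighth highest of the 38.

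**Figure D2:**
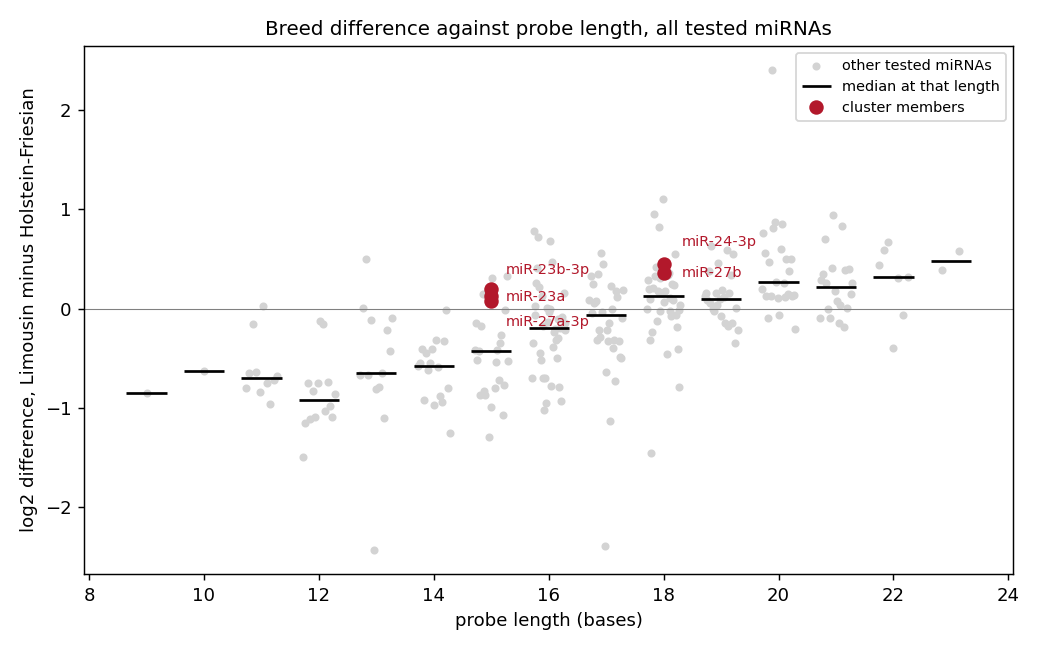
Log2 difference between breeds, Limousin minus Holstein-Friesian (vertical axis), against the length in bases of the probe used, for the 269 tested miRNAs, with black lines at the median of each length and the 5 members in red. The 3 members with 15-base probes lie between 0.08 and 0.20 where the median is -0.43, and the 2 with 18-base probes at 0.36 and 0.45 where it is 0.13.

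When each array was corrected for the GC content and length of its probes, the 5 members lay closer together. Their log2 differences became 0.45 for miR-23a, 0.54 for miR-23b-3p, 0.40 for miR-27a-3p, 0.45 for miR-24-3p and 0.36 for miR-27b. All 5 then passed as higher in Limousin, with limma adjusted p of 0.0138, 0.0047, 0.0124, 0.0048 and 0.0081 in that order, where 17.5% of all tested miRNAs were called higher. The 3 members with 15-base probes were therefore called only in some settings, and which members passed depended on how probe composition was handled. They also passed with the deposited value table, whose scaling takes all miRNAs, at 0.39 for miR-23a, 0.46 for miR-23b-3p and 0.35 for miR-27a-3p (limma adjusted p = 0.0193, 0.0077 and 0.0170). In that setting 81 of the 269 tested miRNAs were called higher and 28 lower, and their median log2 difference was 0.25. The 3 members lay 0.14, 0.21 and 0.10 above that median, in the same order. Under quantile normalization the sign of miR-27a-3p turned, to -0.040 (limma adjusted p = 0.743).

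Scaling moved all members together with the rest of the array. Without scaling the median of all tested miRNAs was 0.79, and the members lay at 1.30 for miR-24-3p, 1.21 for miR-27b, 1.05 for miR-23b-3p, 0.98 for miR-23a and 0.93 for miR-27a-3p. Relative to that median the excess was 0.51, 0.42, 0.26, 0.19 and 0.14 in the same order. With scaling it is the same by arithmetic, since a factor per array shifts every log2 difference alike. All 5 passed without scaling, where 63.9% of all tested miRNAs were called higher in Limousin. Over all 25 alternative settings, miR-24-3p stayed 0.32 to 0.86 above the median of the tested miRNAs and miR-27b 0.17 to 0.77, while miR-27a-3p ran from -0.13 to 0.49.

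**Figure D3:**
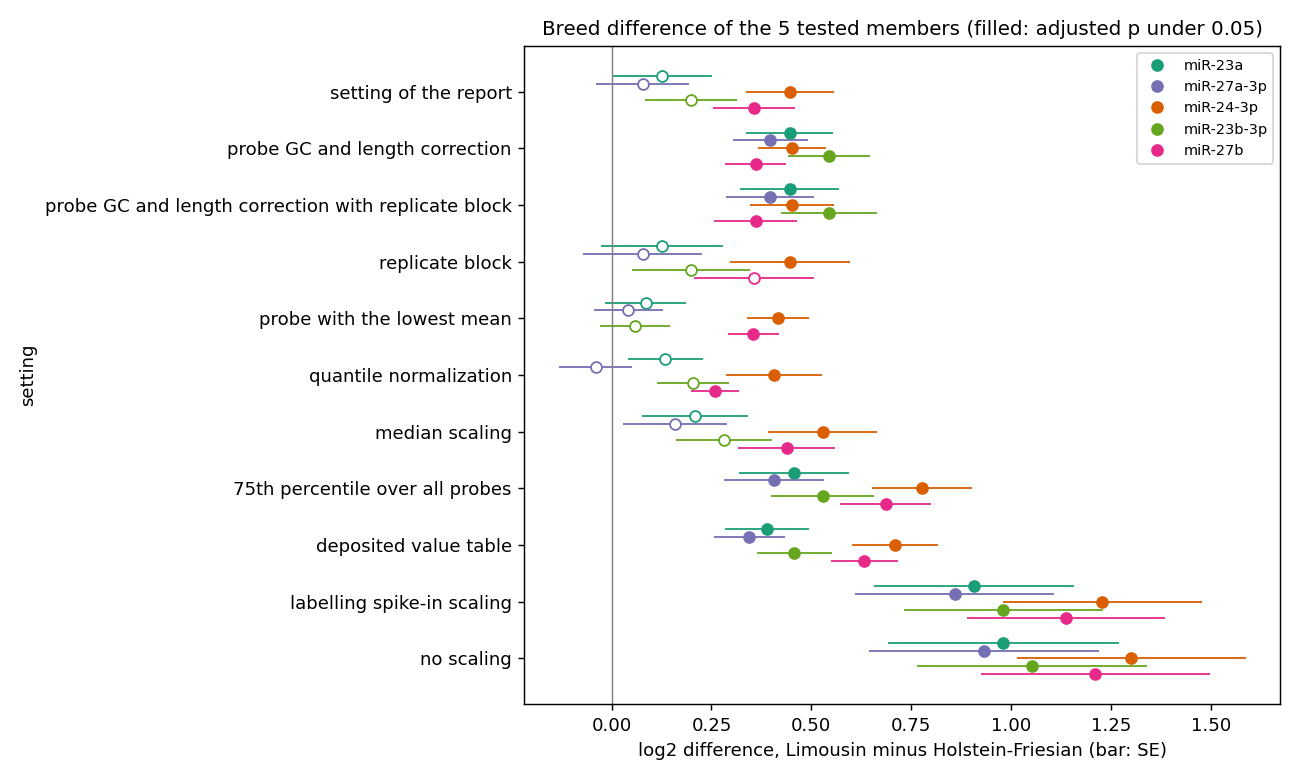
Log2 difference between breeds, Limousin minus Holstein-Friesian (horizontal axis, bars for SE), of the 5 tested members under 11 settings (vertical axis), with filled points for an adjusted p under 0.05. MiR-24-3p is filled at all 11 settings, and all 5 members are filled and lie between 0.36 and 0.54 once probe GC content and length were corrected for.

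The 2 probes of each member gave differences of the same sign. Each of the 5 has 2 probes that differ by 1 base, and the longer one was brighter for each of the 5 members. The log2 excess of the longer over the shorter probe of miR-23b-3p was 2.82 ± 0.08 in Limousin and 2.68 ± 0.06 in Holstein-Friesian (SD, n = 4 each). For miR-24-3p it was 0.21 ± 0.03 in Limousin and 0.18 ± 0.01 in Holstein-Friesian. The breed difference seen by the longer and the shorter probe was 0.45 and 0.42 for miR-24-3p, and 0.36 and 0.36 for miR-27b. It was 0.13 and 0.09 for miR-23a, 0.08 and 0.04 for miR-27a-3p, and 0.20 and 0.06 for miR-23b-3p. All 10 probes of the 5 members thus had the higher mean in Limousin. The 2 probes of a member read the same miRNA and paralog probes share sequence, so these 10 are not separate observations. Probe choice mattered for the size in miR-23b-3p.

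Whether members moved unequally was asked with within-array ratios, in which any scaling factor of the array cancels. In all, 8 pairs were compared with two-sided exact permutation tests over the 70 splits of the arrays, whose smallest p is 0.0286. The ratio of miR-27a-3p to miR-27b, the paralogs with one seed, was lower in Limousin by 0.28 on the log2 scale (log2 difference -0.28; exact permutation p = 0.0286). Centred on its mean over the arrays, it was -0.07, -0.13, -0.14 and -0.22 in Limousin, against 0.25, -0.06, 0.11 and 0.26 in Holstein-Friesian. The breeds did not overlap for this pair, and its p adjusted over the 8 pairs was 0.229. With this smallest p, no adjusted value could pass unless at least 5 of the 8 pairs were fully separated, so the adjusted p of the pairs says little about any 1 of them.

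The ratio of miR-23a to miR-23b-3p, the other paralogs, differed by -0.07 (exact permutation p = 0.400, adjusted 0.429). Within a cluster, miR-27a-3p to miR-23a differed by -0.05 (exact permutation p = 0.429, adjusted 0.429) and miR-27b to miR-23b-3p by 0.16 (exact permutation p = 0.114, adjusted 0.229). The ratio of miR-24-3p differed by 0.37 to miR-27a-3p, by 0.32 to miR-23a, by 0.25 to miR-23b-3p and by 0.09 to miR-27b (exact permutation adjusted p = 0.229, 0.229, 0.229 and 0.429). A p that misses the threshold does not show that the members of a pair moved alike. Once probe composition was corrected for, miR-27a-3p to miR-27b was at 0.037, miR-27b to miR-23b-3p at -0.18 and miR-24-3p to miR-23b-3p at -0.094, each with the sign turned.

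**Figure D4:**
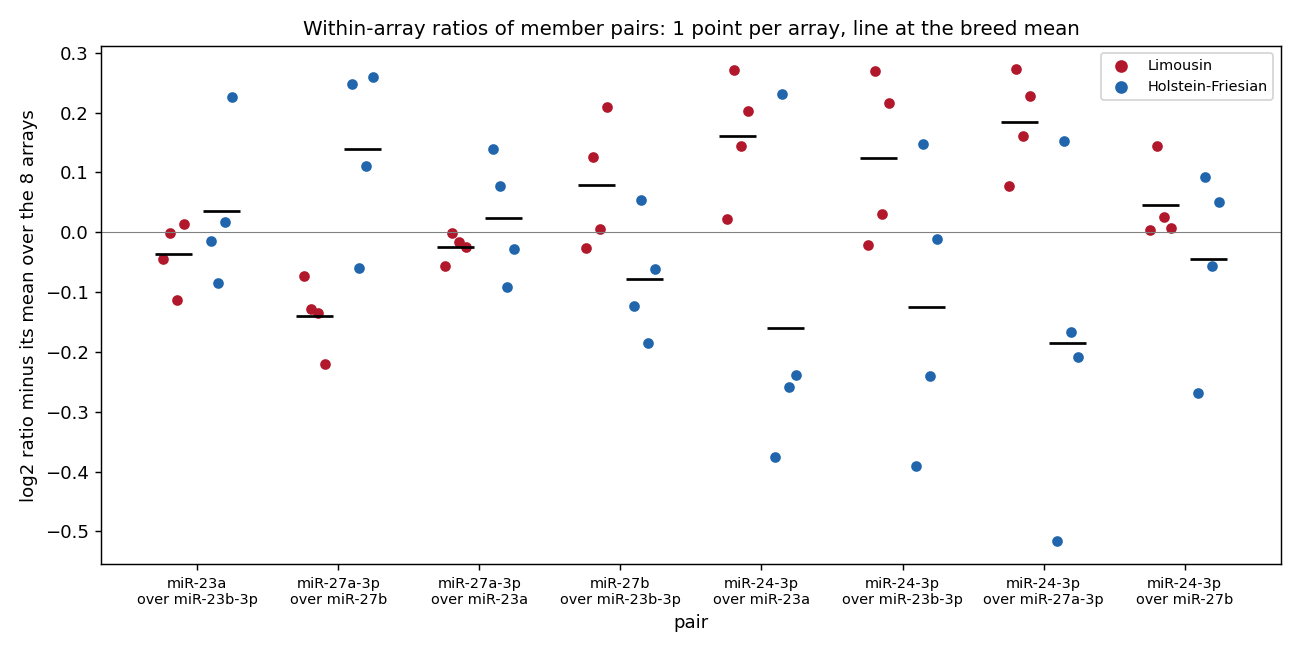
Log2 ratio of 2 members within an array minus its mean over the 8 arrays (vertical axis) for the 8 pairs (horizontal axis), with 1 point per array, Limousin left of Holstein-Friesian, and a line at each breed's mean. Only the ratio of miR-27a-3p to miR-27b has the Limousin points, from -0.22 to -0.07, all below the Holstein-Friesian points, from -0.06 to 0.26.

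Profiles over the 8 arrays were compared by the root mean square distance of scaled log2 values after each miRNA was centred on its own mean. Centring over all arrays keeps the breed difference in the distance, so miRNAs with like breed differences tend to be near. The 2 members nearest to each other were miR-23a and miR-27a-3p, neighbours in the chromosome 7 cluster, at 0.070. Their probes also share a length of 15 bases and a GC content of 53.3%. The 2 farthest apart were miR-24-3p and miR-27a-3p, at 0.255. MiR-24-3p and miR-27b were each the other's nearest member, at 0.116, and their probes share a length of 18 bases and a GC content of 50%. MiR-27b lay nearly as close to miR-23b-3p, its cluster neighbour, at 0.121. By distance, the nearest member ranked only 15 for miR-24-3p and 14 for miR-27b, behind miRNAs from outside the clusters. Holstein-Friesian replicate 2 was the lowest array for miR-23a, miR-23b-3p and miR-27a-3p and the highest Holstein-Friesian array for miR-24-3p. Outside the clusters, the 3 miRNAs nearest to miR-24-3p were let-7e (0.066), miR-199a-3p (0.068) and miR-199c (0.089). Nearest to miR-27b were miR-185 (0.056), miR-199a-5p (0.057) and let-7e (0.076). For miR-23a they were miR-22-3p (0.093), miR-3432 (0.095) and miR-186 (0.104), for miR-23b-3p miR-3432 (0.082), miR-26a (0.085) and miR-205 (0.105), and for miR-27a-3p let-7b (0.067), let-7c (0.083) and miR-214 (0.086). The median distance to all tested miRNAs was 0.308 to 0.345 for the 5 members.

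Other miRNAs tied to fat cells and milk fat moved in both directions. Of 14 tested miRNAs known from fat cell differentiation, 5 were higher and 1 lower in Limousin, with a median log2 difference of 0.30 (over all tested miRNAs, 13.8% higher, 28.3% lower and a median of -0.07). Most of the 14 have probes of 18 bases or more. At 18 to 22 bases the medians of all tested miRNAs ran from 0.09 to 0.32, and the part of probe length in these counts was not tested. MiR-204 (2.40; limma adjusted p = 1.2e-06) and miR-155 (0.95; limma adjusted p = 0.0012) had the smallest p, and miR-130a, another repressor of PPARG, was at 0.16 (limma adjusted p = 0.346). Of 18 tested miRNAs linked to lipid synthesis in mammary epithelium, 6 were higher and 2 lower, with a median of 0.26, beside the same shares over all tested miRNAs. MiR-29b (0.84, limma adjusted p = 0.0074) and miR-221 (0.45, limma adjusted p = 0.0093) had the smallest p. Both lists hold miR-130a and miR-221, among others, so their counts are not separate.

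Markers of cell types that carry these clusters were read from the same arrays, where 13.8% of all tested miRNAs were higher and 28.3% lower. Of the 4 stromal fibroblast miRNAs 3 were higher in Limousin, miR-199b (0.59), miR-199a-3p (0.47) and miR-199a-5p (0.36). All of these are miR-199 entries, with both arms of miR-199a among them, so they are not separate markers. The summed scaled signal of the 4 was 6608 to 8192 in Limousin and 4994 to 5649 in Holstein-Friesian. Of the 3 endothelial miRNAs 1 was lower, miR-139 (-0.42), while miR-126-5p (0.41) and miR-126-3p (0.20) did not pass (limma adjusted p = 0.0779 and 0.230). Their sum was 3215 to 4040 in Limousin and 2785 to 3549 in Holstein-Friesian. Of the 6 epithelial miRNAs on the array, all were detected and 0 passed, with miR-200c at -0.17 and miR-205 at 0.22 and a sum of 18822 to 20644 in Limousin and 17792 to 19968 in Holstein-Friesian. Probe length differs among these markers as well. MiR-139 has a 15-base probe, and the median log2 difference at that length was -0.43. MiR-214, the fibroblast miRNA not called, was at 0.0048 with a 13-base probe, where the median was -0.65. MiR-199a-3p, miR-199a-5p and miR-199b, which were called higher, have probes of 20, 18 and 22 bases, where the medians were 0.26, 0.13 and 0.32. The part of probe length in the marker differences was not tested. The part of cell makeup in the rise of miR-24-3p and miR-27b was not tested.

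Of the 4 tested leukocyte miRNAs 2 were higher (13.8% over all tested miRNAs), miR-155 and miR-142-5p (0.56). MiR-223 (-0.15, limma adjusted p = 0.604) and miR-150 (0.02, limma adjusted p = 0.931) did not pass, and miR-142-3p was detected on no array. The probes of miR-155, miR-142-5p, miR-223 and miR-150 have 18, 20, 21 and 16 bases, and the part of probe length was not tested. The summed signal of the leukocyte miRNAs was 1478 to 1896 in Limousin and 1027 to 1540 in Holstein-Friesian. The only tested fat cell marker, miR-365-3p, was lower (-0.40; limma adjusted p = 0.0400), and miR-193b was detected on no array. The smooth muscle markers miR-145 (-0.23) and miR-143 (-0.06), miR-1 of skeletal muscle (0.26) and miR-451 of red cells (-0.35) did not pass.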

How the data were processed

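Scanner files of 8 one-colour arrays were used. Per the file headers, the software was Agilent Feature Extraction 10.10.1.1 with spatial detrending switched on. The deposited spot intensity is background-subtracted, can fall below 0 and is not scaled between arrays. The deposited value table holds log2 values; each column equals log2 of the total signal per miRNA minus a constant, to within 9.7e-06, as read from the values (column medians -9.79 to -8.53). It is 1 column per sample, not centred by miRNA, and was used as an alternative.

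Control and outlier spots were left out, spots of a probe averaged, and signals divided by the 75th percentile over probes detected on all arrays. A floor of 1 was set before log2. A miRNA was read from whichever of its probes had the highest mean. Of 763 miRNAs, 269 were tested with limma 3.58.1 in R 4.3.3 (lmFit, eBayes, breed as the only term, threshold 0.05). Differences are Limousin minus Holstein-Friesian. No spot was saturated, 28.6% to 35.5% of spots were well above background, and the number of arrays limits the precision. Names follow the array's annotation, which may be out of date. The correction for probe composition subtracted, on each array, a linear fit of each miRNA's deviation from its own mean on GC content and length.

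The members, the lists and the alternatives were chosen with earlier results of these data known. All array entries of the clusters are named, with the 3 tested miRNAs nearest to each detected member. The 2 with the smallest p of each list are named too. MiR-130a, miR-126-3p, miR-223, miR-150 and the undetected markers were named after their values were seen. Using the probe with the lowest mean was added after seeing the data.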

Additional observations from a re-analysis of the deposited data

Results flagged for a closer look

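One result stood out among 28 sets of 4 arrays examined for a sample far from the others. The within-array log2 ratio of miR-24-3p to miR-27b, centred on its mean over the arrays, was 0.14 in Limousin replicate 2 and 0.0043 to 0.03 in the other 3 Limousin replicates. The gap to the nearest array was 0.85 of the group's range, above Dixon's critical value for 4 samples. Chance alone marks about 1 in 20 such sets. Limousin replicate 2 was also the brightest array, with a 75th percentile of 1579, and the part of brightness in this ratio was not tested.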

How the results depend on the processing

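MiR-24-3p kept its direction and call in all 25 alternative settings (17 of processing, 8 leaving out an array). MiR-27b kept its direction in all 25 and its call in 21; the replicate number as a block left 0.36 (adjusted p = 0.0973) and left miR-24-3p at 0.45 (0.0460). Titles give both breeds the numbers 1 to 4. Deviations of same-numbered arrays correlated at -0.30, -0.25, -0.45 and 0.31, and only number 4 correlated best with its own. These 4 values gave no clear pairing, but they cannot show that the numbers carry none. The block gave 25 higher and 59 lower.

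MiR-23a, miR-23b-3p and miR-27a-3p passed in 6 of 25 settings each. With the 75th percentile over all probes they were at 0.46, 0.53 and 0.41 (104 miRNAs higher, 30 lower in Limousin), without scaling at 0.98, 1.05 and 0.93 (172 and 2, in all 174), with labelling spike-in scaling at 0.91, 0.98 and 0.86 (172 and 4, in all 176), with the deposited value table at 0.39, 0.46 and 0.35 (81 and 28), and after the GC and length correction at 0.45, 0.54 and 0.40 without the block (47 and 31) and with it (37 and 24, in all 61). MiR-27a-3p turned to -0.040 under quantile normalization (56 higher, 45 lower). Background by normexp gave 26 higher and 145 lower, in all 171, and no background correction 27 and 142. The cause of these shifts was not tested.

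The 8 pair ratios had a smallest adjusted p of 0.0762 over the 15 settings run for them; since at least 5 of the 8 pairs would have to be fully separated for any to pass, this says nothing about stability. Signs turned for miR-27a-3p to miR-27b (0.037), miR-27b to miR-23b-3p (-0.18) and miR-24-3p to miR-23b-3p (-0.094) after the GC and length correction, and for miR-23a to miR-23b-3p (0.026) with the dimmer probe, a setting added after seeing the data. Leaving out 1 array gave 0.03 to 0.17 for miR-23a, 0.14 to 0.25 for miR-23b-3p, 0.39 to 0.48 for miR-24-3p, -0.00075 to 0.13 for miR-27a-3p and 0.31 to 0.38 for miR-27b. The counts were then 71 to 143 in all, 24 to 56 higher and 47 to 87 lower; the total was lowest without Limousin replicate 1. MiR-23b-5p, miR-27a-5p and miR-24 were too dim to test.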
